A study of Mus musculus with 6 samples.

Results

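The 3 Nr4a nuclear receptors (*Nr4a1*, *Nr4a2*, *Nr4a3*) and 5 Krüppel-like factors that many cells switch on early after a stimulus (*Klf2*, *Klf4*, *Klf6*, *Klf9*, *Klf10*) were examined in the RNA-seq of mouse embryonic fibroblasts (MEFs), the connective tissue cells grown out of mouse embryos. The genes were chosen by symbol, and all 8 were found among the 17092 genes of the deposited table, each once. MEFs of WT mice were compared with MEFs of *Aff3ir-ORF2*-/- mice (labelled KO, and written AFFEir-ORF2-/- in the deposited design text), with 3 libraries of each genotype and no treatment in the labels. The *Aff3ir-ORF2*-/- line was made, by the study's methods, with Cas9 mRNA and guide RNAs injected into fertilized eggs and is a germline knockout. Neither the labels nor the methods say how many embryos gave each culture, at which embryonic age, or whether the 3 libraries of a genotype came from separate cultures. P values therefore measure the spread between these libraries, which may be technical. The study sequenced these cells to look for the mechanism by which *Aff3ir-ORF2* acts.

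Nr4a receptors are orphan nuclear receptors. They have no known classical hormone, so their activity follows largely from how much of them is made, and their genes are among the first to be transcribed when serum, growth factors, cAMP or mechanical force reach a fibroblast. Krüppel-like factors bind GC-rich and CACCC sequences through zinc fingers at the C-terminal end of the protein. Several of them are also early response genes whose RNA is short-lived, and *Klf2* and *Klf4* are best known in vessels, where laminar flow induces them.

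Total counts ranged from 17435133 to 17726034 in the WT libraries and from 18209421 to 18252330 in the *Aff3ir-ORF2*-/- libraries. *Aff3ir* itself, which lies within *Aff3*, was not analysed here. *Aff3* fell from 23.5 ± 0.416 to 11.3 ± 1.30 CPM (counts scaled to the size of the library by edgeR's TMM method; SD, n = 3; adjusted p = 1.23e-05). Replicate spread beyond counting noise was unequal, with a common biological coefficient of variation of 0.0185 in WT and 0.0998 in *Aff3ir-ORF2*-/- libraries. Fibroblast markers were present in every library. All 10 listed markers, such as *Col1a1* and *Pdgfra*, were counted in each. Their summed level was 24020 to 24130 CPM in WT and 21470 to 27810 CPM in *Aff3ir-ORF2*-/- MEFs. Single markers moved within this sum, 5 with a positive and 5 with a negative log2 fold change. *Fn1* went from 8867 to 12070 CPM and *Col1a1* from 7363 to 5243 CPM on average. Markers of macrophages moved with the genotype. The summed level of 18 macrophage genes was 23.0 to 26.4 CPM in WT and 1369 to 2341 CPM in *Aff3ir-ORF2*-/- MEFs, 17 of 17 tested genes were higher, and *C1qa*, *C1qb* and *Aif1* were at 0 counts in all WT libraries, while no listed macrophage gene was at 0 in all *Aff3ir-ORF2*-/- libraries. Macrophages also transcribe *Nr4a1*, *Klf2*, *Klf4* and *Klf6*, and the part of such cells in the values below was not tested. The 8 endothelial markers in the table summed to 11.4 to 12.1 CPM in WT and 18.9 to 23.6 CPM in *Aff3ir-ORF2*-/- MEFs. Single endothelial markers did not move together. Of the 6 tested, 3 had a positive (*Kdr*, *Erg*, *Vwf*) and 3 a negative log2 fold change (*Cdh5*, *Tek*, *Egfl7*). The 6 epithelial markers summed to 4.06 to 4.86 CPM in WT and 3.33 to 4.56 CPM in *Aff3ir-ORF2*-/- MEFs. The 2 T cell markers summed to 0.754 to 1.66 and 0.768 to 1.23 CPM, in the same order.

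Of the 8 genes, 4 fell in *Aff3ir-ORF2*-/- MEFs and 0 rose past both thresholds, an adjusted p under 0.05 and a change of at least 1.5-fold. *Nr4a1* fell most, to 27.0% of its WT level, followed by *Klf6* at 51.6%, *Klf2* at 63.7% and *Klf10* at 64.4%. *Klf9* and *Klf4* differed by less than 1.5-fold, and *Nr4a2* and *Nr4a3* did not share the fall of *Nr4a1*. All 8 genes passed the filter on low counts, the lowest count of any being 41. Of the 13075 genes tested, 7.27% were lower and 14.2% higher past both thresholds (21.4% in either direction). At the adjusted p alone, 5 of the 8 were lower, with 27.5% of tested genes lower and 29.3% higher (56.8% in either direction). The count of 0 higher genes was also 0 at an unadjusted p with the 1.5-fold change, with DESeq2 and with limma voom, and 1 of the 8 (*Nr4a2*) was higher at an unadjusted p under 0.05 without the fold change. Normalized counts were separate between WT and *Aff3ir-ORF2*-/- libraries for 5 lower genes and 1 higher gene, as they were for 32.7% and 33.3% of tested genes. The median log2 fold change was -0.41 over the 8 genes and 0.01 over all tested genes. Together the 8 genes took 0.104% to 0.106% of the counts of a WT library and 0.0535% to 0.0600% of an *Aff3ir-ORF2*-/- library. In bulk RNA, fewer cells of a type and less RNA of a gene per cell cannot be told apart.

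**Figure D1:**
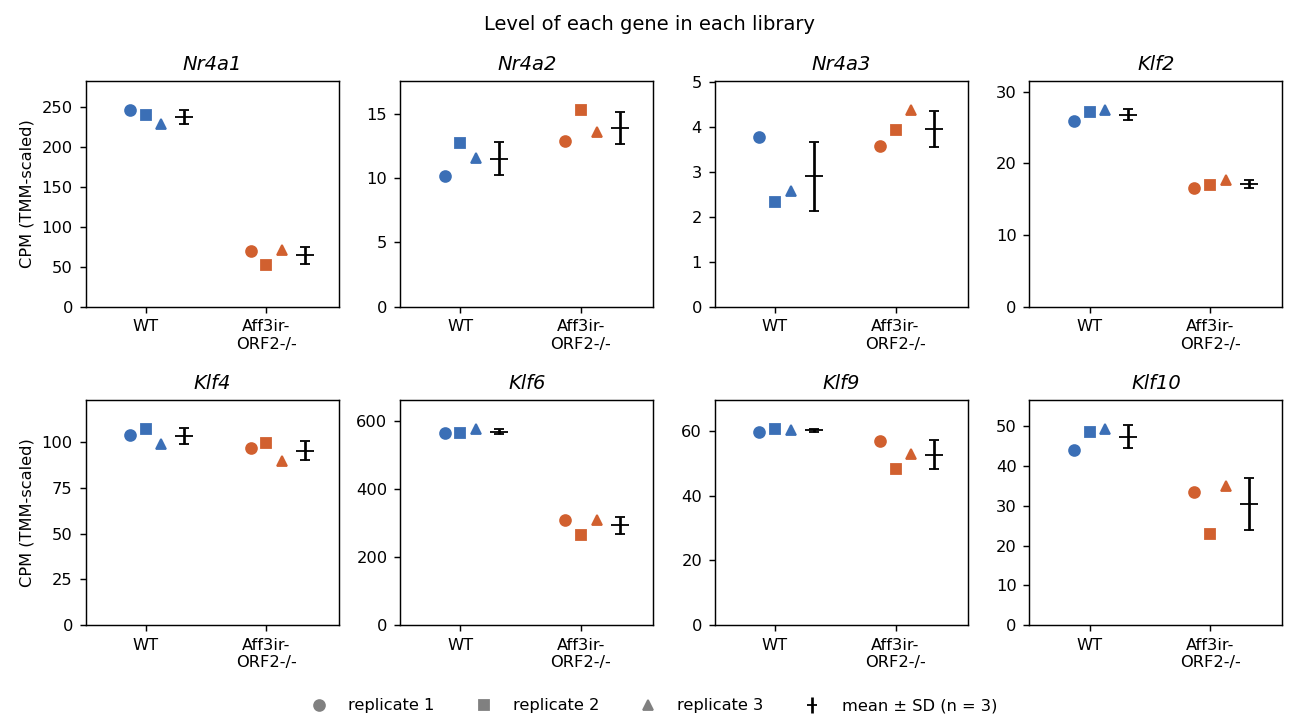
CPM of the 8 genes (y axis, from 0) in each WT and *Aff3ir-ORF2*-/- library, with points for replicates 1 to 3 and bars for the mean ± SD (n = 3). *Nr4a1*, *Klf2*, *Klf6*, *Klf9* and *Klf10* have all *Aff3ir-ORF2*-/- points below all WT points, while *Klf4* and *Nr4a3* overlap.

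*Nr4a1* encodes Nur77, the founding member of its family. WT replicates 1 to 3 held 4242, 4214 and 3996 counts of it, and *Aff3ir-ORF2*-/- replicates 1 to 3 held 1270, 974 and 1306. The lowest WT library thus held over 3 times the counts of the highest *Aff3ir-ORF2*-/- library, and the groups did not overlap. In CPM, the level went from 238 ± 8.75 to 64.4 ± 10.5 (SD, n = 3 each). The log2 fold change was -1.89 (standard error 0.11, 95% interval -2.15 to -1.62, edgeR quasi-likelihood adjusted p = 1.44e-05). By size of decrease it stood at place 52 of the 13075 tested genes. The fall was seen in all the alternatives tried, from -1.97 to -1.76 on the log2 scale.

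*Nr4a2*, which encodes Nurr1 and is best known from dopamine neurons, was counted 176, 225 and 202 times in WT and 235, 285 and 250 times in *Aff3ir-ORF2*-/- MEFs. All 3 *Aff3ir-ORF2*-/- libraries lay above the 3 WT libraries in normalized counts, although *Aff3ir-ORF2*-/- replicate 1 (12.9 CPM) and WT replicate 2 (12.8 CPM) nearly met. The log2 fold change was 0.27 (standard error 0.11, 95% interval 0.03 to 0.52) with an edgeR adjusted p of 0.0516, just outside the threshold, and this p ranged from 0.0247 to 0.187 over the alternatives. *Nr4a3*, which encodes Nor1, had few reads. WT libraries held 65, 41 and 45 counts of it, and *Aff3ir-ORF2*-/- libraries 65, 73 and 80. WT replicate 1 lay inside the range of the *Aff3ir-ORF2*-/- libraries. The log2 fold change was 0.45 (standard error 0.20, 95% interval -0.01 to 0.91, edgeR adjusted p = 0.0847), so a rise of 1.5-fold is within the interval and a fall like that of *Nr4a1* is far outside it. Without WT replicate 1 the value was 0.69 and past both thresholds (adjusted p = 0.0217).

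Levels can be set side by side across genes only per length, and here the CPM was divided by the length of the longest protein-coding GENCODE M21 transcript. In WT MEFs *Nr4a1* stood at 93.2 ± 3.43 CPM per kilobase, *Nr4a2* at 3.23 ± 0.363 and *Nr4a3* at 0.506 ± 0.134 (SD, n = 3). The order was the same in *Aff3ir-ORF2*-/- MEFs, at 25.2 ± 4.12, 3.91 ± 0.344 and 0.690 ± 0.0692 CPM per kilobase, with no overlap between neighbours in either genotype. *Nr4a1* made up 96.5%, 95.9% and 96.0% of the summed level of the family in the WT libraries and 86.6%, 80.5% and 85.9% in the *Aff3ir-ORF2*-/- libraries. The share of *Nr4a2* went from 3.33% ± 0.418 to 13.4% ± 3.03 and that of *Nr4a3* from 0.520% ± 0.126 to 2.34% ± 0.357. *Nr4a1* thus remained the main transcript of the family by this measure. The summed level of the 3 genes was 97.0 ± 3.39 CPM per kilobase in WT and 29.8 ± 3.81 in *Aff3ir-ORF2*-/- MEFs. For both the share of *Nr4a1* and the family sum an exact permutation test over libraries gave a two-sided p of 0.1 (0.1 after Benjamini-Hochberg adjustment over 5 such values), the smallest that 3 libraries against 3 allow. Any value without overlap between the genotypes gives this p, and 32.7% of tested genes were lower and 33.3% higher without overlap. *Nr4a1* is most of the sum, so neither value is a result separate from its fall.

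**Figure D2:**
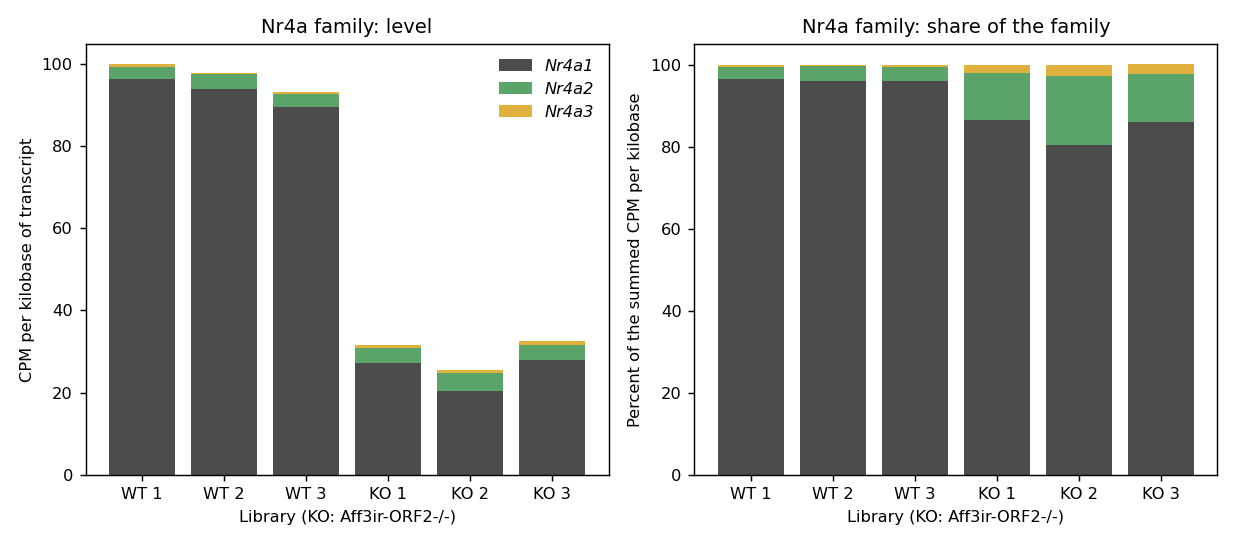
Level of the 3 Nr4a genes in CPM per kilobase of transcript (left) and their percent of the family sum (right), stacked for each of the 3 WT and 3 *Aff3ir-ORF2*-/- libraries (KO). The *Nr4a1* part shrinks from 93.2 to 25.2 CPM per kilobase on average, while *Nr4a2* and *Nr4a3* change little in level and more in share.

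The upstream sequences of the Nr4a genes are shown because these paralogs share a sequence feature and yet differ in their change between the genotypes. Each is the 250 bases before the RefSeq start of the gene (GRCm38.p6), printed 5′ to 3′ on the strand of the gene, with every TGACG, or CGTCA where it lies on the opposite strand, in capitals. TGACG is the core of the cAMP response element, which CREB and related factors bind.

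*Nr4a1* (chr15:101266596-101266845, plus strand): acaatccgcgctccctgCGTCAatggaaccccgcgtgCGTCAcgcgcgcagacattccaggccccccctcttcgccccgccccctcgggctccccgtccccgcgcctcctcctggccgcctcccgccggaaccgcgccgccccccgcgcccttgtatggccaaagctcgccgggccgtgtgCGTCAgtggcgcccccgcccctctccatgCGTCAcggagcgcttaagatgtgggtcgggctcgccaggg

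*Nr4a2* (chr2:57124004-57124253, minus strand): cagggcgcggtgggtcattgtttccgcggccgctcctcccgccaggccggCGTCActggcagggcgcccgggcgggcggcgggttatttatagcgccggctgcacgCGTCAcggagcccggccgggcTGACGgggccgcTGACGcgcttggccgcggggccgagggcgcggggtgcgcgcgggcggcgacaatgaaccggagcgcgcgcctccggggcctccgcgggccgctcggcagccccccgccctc

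*Nr4a3* (chr4:48045055-48045304, plus strand): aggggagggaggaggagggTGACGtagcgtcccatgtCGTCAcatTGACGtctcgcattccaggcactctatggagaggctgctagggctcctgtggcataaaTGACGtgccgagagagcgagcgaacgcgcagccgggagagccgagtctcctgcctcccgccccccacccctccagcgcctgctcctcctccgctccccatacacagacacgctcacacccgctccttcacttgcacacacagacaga

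The core TGACG occurred 4 times in each of the 3 windows. Over 32851 RefSeq upstream windows of the same length, 17.8% held the core at least once on either strand and 0.137% (45 windows) held it 4 times or more. The windows of *Nr4a1*, *Nr4a2* and *Nr4a3* were 74.4%, 80.0% and 63.6% G or C. The 32851 windows were not matched for this, so its part in these shares was not tested. In *Nr4a1* the matches began 233, 213, 69 and 40 bases before the start, all on the opposite strand. In *Nr4a2* they began 200, 144, 123 and 111 bases before the start, and in *Nr4a3* 231, 213, 205 and 147 bases before it. The full palindrome TGACGTCA, of which the core is a part, was in none of the 3 windows (1.55% of all windows), nor was AAAGGTCA, the element that Nr4a receptors bind as monomers (1.34%). A match of letters is a description of the sequence and not evidence of binding, and the start used in these cells is not known.

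*Klf6*, a widely expressed early response factor, had the most reads of the 8 genes. It was counted 9766, 9958 and 10094 times in WT and 5637, 4931 and 5653 times in *Aff3ir-ORF2*-/- MEFs. The 3 WT libraries lay close together and well above all *Aff3ir-ORF2*-/- libraries. The level fell from 570 ± 6.55 to 294 ± 25.5 CPM (SD, n = 3 each). On the log2 scale the change was -0.96 (standard error 0.06, 95% interval -1.09 to -0.82, edgeR adjusted p = 2.77e-06). *Klf2*, a factor of endothelial and lymphocyte quiescence, was counted 448, 477 and 479 times in WT and 303, 316 and 325 times in *Aff3ir-ORF2*-/- MEFs. Both genotypes were tight and apart, with 26.8 ± 0.759 against 17.1 ± 0.550 CPM (SD, n = 3 each). Its log2 fold change was -0.65 (standard error 0.06, 95% interval -0.79 to -0.51, edgeR adjusted p = 2.85e-05).

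*Klf10*, first described as a TGF-β-inducible early gene and a repressor of transcription, was counted 761, 856 and 863 times in WT and 610, 428 and 644 times in *Aff3ir-ORF2*-/- MEFs. The groups did not overlap, but *Aff3ir-ORF2*-/- replicate 2 lay well below the other two libraries of its genotype. The level was 47.4 ± 2.85 CPM in WT and 30.5 ± 6.58 CPM in *Aff3ir-ORF2*-/- MEFs (SD, n = 3 each), and the log2 fold change was -0.64 (standard error 0.15, 95% interval -0.997 to -0.275, edgeR adjusted p = 0.0104). Without *Aff3ir-ORF2*-/- replicate 2 it was -0.47 (adjusted p = 6.59e-06), under the 1.5-fold change, so that the call of *Klf10* rests on this library.

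*Klf9*, a gene that glucocorticoids and thyroid hormone induce, was counted 1030, 1066 and 1053 times in WT and 1037, 898 and 972 times in *Aff3ir-ORF2*-/- MEFs. The level was 60.2 ± 0.452 CPM in WT and 52.7 ± 4.38 CPM in *Aff3ir-ORF2*-/- MEFs (SD, n = 3 each), with no overlap between the groups. The log2 fold change of -0.19 (standard error 0.06, 95% interval -0.33 to -0.05) passed the adjusted p threshold in edgeR (adjusted p = 0.0256) but was smaller than 1.5-fold. The adjusted p was over the threshold with DESeq2 (0.0505) and without any 1 of the WT libraries (0.0649 to 0.0800). *Klf4*, one of the factors that reprogram fibroblasts to pluripotency, was counted 1791, 1886 and 1727 times in WT and 1766, 1852 and 1642 times in *Aff3ir-ORF2*-/- MEFs. The genotypes overlapped at 103 ± 4.24 and 95.2 ± 5.17 CPM (SD, n = 3 each). Its log2 fold change was -0.12 (standard error 0.05, 95% interval -0.24 to 0.00, edgeR adjusted p = 0.0902), an interval that does not reach a 1.5-fold fall. Without *Aff3ir-ORF2*-/- replicate 2 its adjusted p was 0.0114, at a log2 fold change of -0.15.

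**Figure D3:**
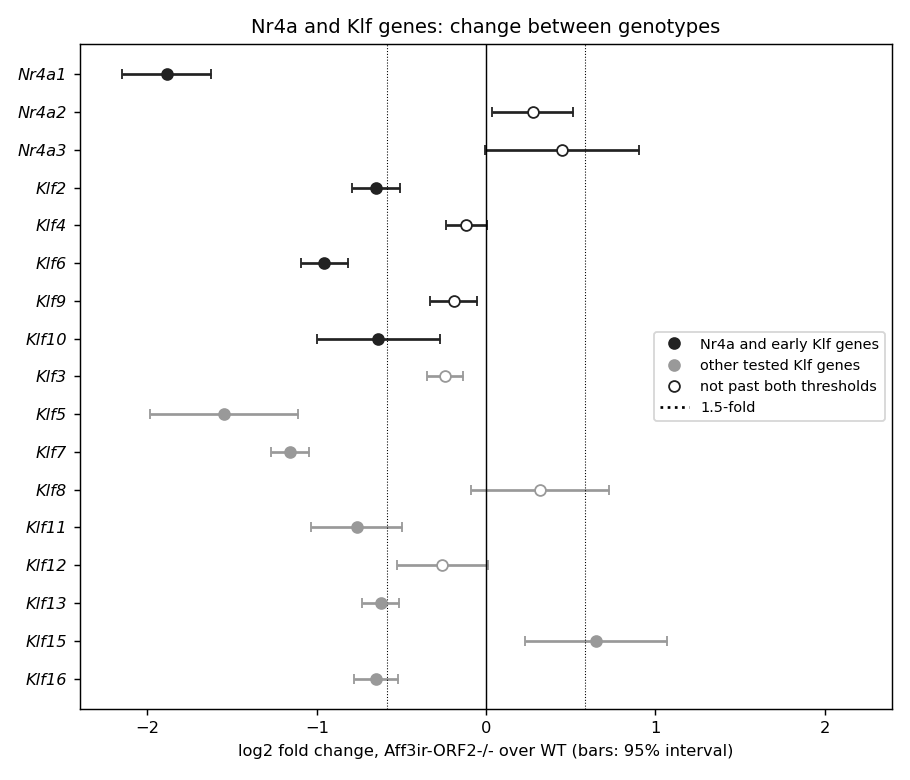
Log2 fold change of *Aff3ir-ORF2*-/- over WT MEFs (x axis) with 95% intervals for the 8 genes (black) and the 9 other tested Klf genes (grey), 3 libraries of each genotype. Filled points passed both thresholds and dotted lines mark 1.5-fold; *Nr4a1* lies at -1.89, and *Klf15* (0.65) is the one filled point on the right.

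The upstream windows of the Klf genes differed more among themselves. Those of *Klf6* and *Klf2*, the Klf genes of this group whose fall did not depend on a single library, are printed in the same way and from the same RefSeq build.

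*Klf6* (chr13:5861239-5861488, plus strand): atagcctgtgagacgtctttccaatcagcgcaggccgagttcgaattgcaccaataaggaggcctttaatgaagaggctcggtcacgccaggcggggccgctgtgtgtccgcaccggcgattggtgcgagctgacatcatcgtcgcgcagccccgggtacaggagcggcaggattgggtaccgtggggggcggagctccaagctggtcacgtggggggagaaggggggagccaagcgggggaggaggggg

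*Klf2* (chr8:72318812-72319061, plus strand): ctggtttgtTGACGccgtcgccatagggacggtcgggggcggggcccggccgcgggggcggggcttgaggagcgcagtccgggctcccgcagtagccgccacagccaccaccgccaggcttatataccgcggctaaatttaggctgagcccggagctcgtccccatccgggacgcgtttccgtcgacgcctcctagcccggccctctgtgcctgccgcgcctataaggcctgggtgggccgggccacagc

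*Klf6* had no TGACG in its window, and *Klf2*, *Klf4* and *Klf9* had 1 each, at 241, 232 and 46 bases before the start. The core was present in windows of genes lower past both thresholds (*Nr4a1*, *Klf2*) and of genes short of them (*Nr4a2*, *Nr4a3*, *Klf4*, *Klf9*). Its part in the values was not tested. The GC box, GGGCGG on either strand, was present in 6 of the 7 windows searched (all but that of *Klf9*). It was present in 32.7% of all windows, which were not matched for their content of G and C. The AP-1 site TGANTCA was found in the window of *Klf9* alone (6.75% of all windows), and the CArG box, which SRF binds, in none of the 7 (1.47%). The upstream window of *Klf10* was not used here.

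Among the *Aff3ir-ORF2*-/- libraries the genes did not vary together in one direction. Replicate 2 was the lowest of its genotype for *Nr4a1*, *Klf6*, *Klf9* and *Klf10*, with log2 deviations from the genotype mean of -0.29, -0.15, -0.13 and -0.38. The same library was the highest for *Nr4a2* (0.14) and *Klf4* (0.06). *Klf2* moved by 0.05 at most. In the WT libraries the widest deviations were those of *Nr4a3* (-0.27 to 0.40) and *Nr4a2* (-0.17 to 0.16), which have the lowest counts, followed by *Klf10* (-0.10 to 0.06).

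Within the Klf family, *Klf6* had the highest level per kilobase in both genotypes, at 135 ± 1.55 CPM per kilobase in WT and 69.6 ± 6.04 in *Aff3ir-ORF2*-/- MEFs (SD, n = 3). *Klf4* came next at 34.1 ± 1.40 and 31.4 ± 1.71. Among the other early Klf genes the order in WT MEFs was *Klf10* (15.6 ± 0.937), *Klf2* (14.5 ± 0.410) and *Klf9* (13.4 ± 0.101), of which *Klf10* and *Klf2* overlapped between libraries. In *Aff3ir-ORF2*-/- MEFs the order was *Klf9* (11.7 ± 0.976), *Klf10* (10.02 ± 2.16) and *Klf2* (9.26 ± 0.297), where *Klf9* overlapped with *Klf10*, and *Klf10* with *Klf2*. *Klf6* took 44.6% ± 0.634 of the summed level of all 17 Klf genes in WT and 36.3% ± 1.44 in *Aff3ir-ORF2*-/- MEFs. The share of *Klf4* went the other way, from 11.3% ± 0.443 to 16.5% ± 1.54, while its own level did not pass the test. The family sum was 302 ± 3.12 CPM per kilobase in WT and 192 ± 9.74 in *Aff3ir-ORF2*-/- MEFs. Each of these 3 values gave the smallest p that the exact permutation test allows here (two-sided p = 0.1), as any value without overlap does. They are not separate results, since the sum holds *Klf6* and both shares are taken of the sum. A fall of *Klf6* raises the share of *Klf4* without a change in its level.

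**Figure D4:**
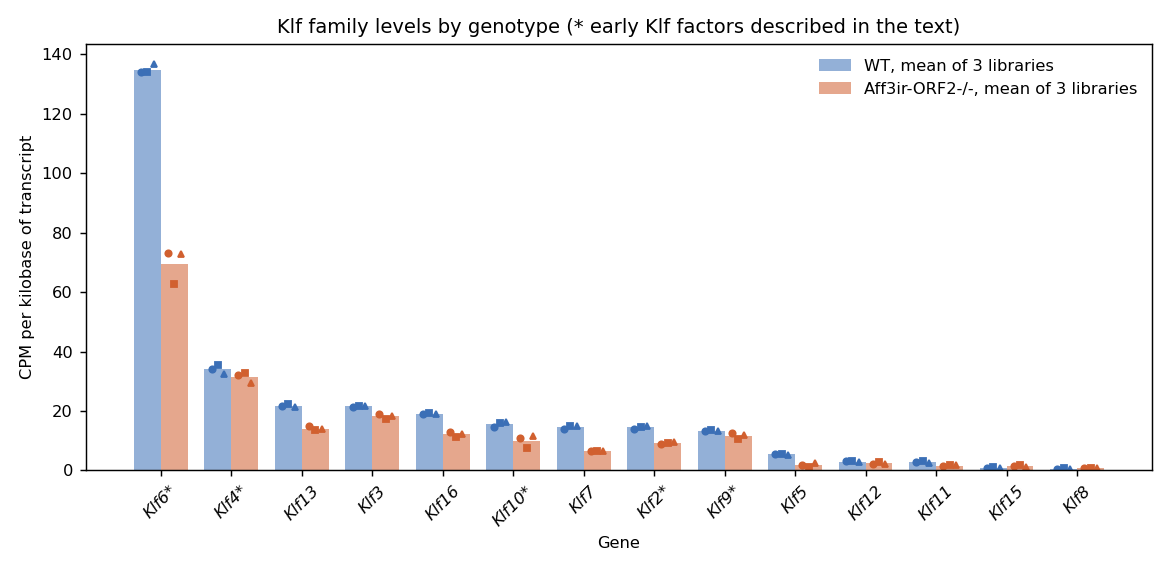
CPM per kilobase of transcript (y axis, from 0) for the 14 tested Klf genes, with bars for the mean of 3 WT or 3 *Aff3ir-ORF2*-/- libraries and points for the libraries. *Klf6* falls from 135 to 69.6, *Klf4* stays near its WT level at 31.4, and stars mark the 5 early Klf genes.

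Several other Klf genes fell too. Of 12 other Klf genes listed, 9 had enough counts to be tested. Of these, 5 were lower and 1 higher past both thresholds (66.7% called), with a median log2 fold change of -0.62. Over all tested genes 7.27% were lower and 14.2% higher past both thresholds. *Klf5*, a factor of epithelial and smooth muscle growth, fell from 18.4 ± 0.866 to 6.30 ± 1.96 CPM (SD, n = 3 each; log2 fold change -1.55, edgeR adjusted p = 2.37e-04). *Klf7* fell by 1.16 on the log2 scale (adjusted p = 5.34e-07), *Klf16* by 0.65 (1.69e-05) and *Klf13* by 0.62 (8.31e-06). *Klf11*, the closest relative of *Klf10*, fell by 0.77 (4.62e-04). *Klf15*, a glucocorticoid-induced factor, was the one that rose, from 2.39 ± 0.335 to 3.75 ± 0.549 CPM (log2 fold change 0.65, adjusted p = 0.0146). *Klf3* was at -0.24, *Klf12* at -0.26 and *Klf8* at 0.32, none of them past both thresholds. *Klf1*, *Klf14* and *Klf17* had at most 1 count in any library.

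Genes for proteins that work with these factors changed by less than 1.5-fold or did not pass the test. Of 15 cofactors listed, among them the retinoid X receptors with which Nr4a receptors can pair and the Sin3 and Ctbp corepressors used by Klf factors, 14 were tested and 0 passed both thresholds in edgeR. The count was also 0 at an unadjusted p with the 1.5-fold change, with DESeq2 and with limma voom, and 1 when libraries were scaled by their upper quartile or by their total. At the adjusted p alone 9 of the 14 differed, 4 higher and 5 lower, and 10 had an unadjusted p under 0.05. Over all tested genes 21.4% passed both thresholds and 56.8% passed the adjusted p alone. *Rxra*, which encodes a partner of Nr4a1, was at 57.0 ± 0.591 CPM in WT and 84.1 ± 2.99 CPM in *Aff3ir-ORF2*-/- MEFs (log2 fold change 0.56). This rise passed the adjusted p threshold (edgeR adjusted p = 1.19e-05) and, at 1.47-fold, lay just short of the 1.5-fold change. Among the cofactors with the most counts were *Ncor1* (-0.04) and *Ctbp1* (-0.16), given as log2 fold changes. The median of the list was -0.04.

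Factors that transmit the stimuli which induce Nr4a and early Klf genes were read from a list of 28, all of them tested. Of these, 2 were higher and 2 lower past both thresholds, a share of 14.3% against 21.4% of all tested genes, and the median log2 fold change was -0.06. *Srf*, the serum response factor, fell from 179 ± 3.26 to 92.7 ± 11.6 CPM (SD, n = 3 each; log2 fold change -0.95, edgeR adjusted p = 2.60e-05), and *Elk4*, one of its ternary complex partners, fell by 0.73 (adjusted p = 0.00102). *Mef2c* and *Mef2a*, of the family that binds the *Nr4a1* promoter in lymphocytes, rose by 1.48 (2.27e-05) and 0.65 (2.59e-06). *Creb1* was at 46.9 ± 1.31 CPM in WT and 46.9 ± 1.80 CPM in *Aff3ir-ORF2*-/- MEFs, a difference of 0.00 on the log2 scale (standard error 0.05). Among the genes with the most counts that did not pass both thresholds were *Tgfbr2* (-0.04) and *Map2k1* (0.23).

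Other early response genes fell with *Nr4a1* and *Klf6*. Of 30 listed, none of them among the 8 genes, 29 were tested. Of these, 19 fell and 0 rose past both thresholds in edgeR (65.5% called), with a median log2 fold change of -1.03. Over all tested genes 7.27% were lower and 14.2% higher past both thresholds. The count of 0 higher genes was also 0 at an unadjusted p under 0.05, with DESeq2 and with limma voom. The 4 with the lowest adjusted p were *Egr2* (-3.57), *Egr3* (-3.47), *Fosb* (-3.62) and *Myc* (-1.32). Of those that did not pass both thresholds, *Fosl2* (0.12), *Btg2* (-0.07) and *Mafk* (-0.20) had the most counts. This list was written with earlier results of these data known and overlaps in 5 genes with the lists that follow.

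Genes that respond to single stimuli were read from 3 lists. Of 14 tested CREB-responsive genes 2 were higher and 3 lower (35.7% called), with a median log2 fold change of -0.27. *Rgs2* (1.63) and *Crem* (0.80) rose, and *Areg* (-1.90), *Fos* (-1.20) and *Ptgs2* (-1.13) fell, while *Dusp1* (-0.59), *Cebpb* (0.37) and *Pde4d* (-0.27) did not pass both thresholds. Of 14 tested glucocorticoid-responsive genes, the class to which *Klf9* belongs, 5 were higher and 2 lower (50% called), with a median of 0.25. *Angptl4* (1.67), *Cebpd* (1.04), *Pdk4* (1.86), *Lcn2* (2.38) and *Tsc22d3* (0.60) rose, and *Errfi1* (-1.46) and *Sgk1* (-1.35) fell. *Mt1* (0.20), *Mt2* (0.33) and *Nfkbia* (0.31) did not pass both thresholds. Neither did *Dusp1* (-0.59), *Fkbp5* (-0.55), *Cdkn1c* (-0.41) and *Per1* (-0.40), which had negative values. Of these 14 genes, 8 had a positive and 6 a negative log2 fold change. Of 10 TGF-β-responsive genes, the class to which *Klf10* belongs, 1 was higher and 1 lower, a share of 20% that is near the 21.4% over all tested genes, with a median of -0.32. *Ltbp2* (0.89) rose and *Junb* (-0.70) fell, while *Tnc* (-0.45) and *Ccn2* (-0.55) did not pass both thresholds.

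**Figure D5:**
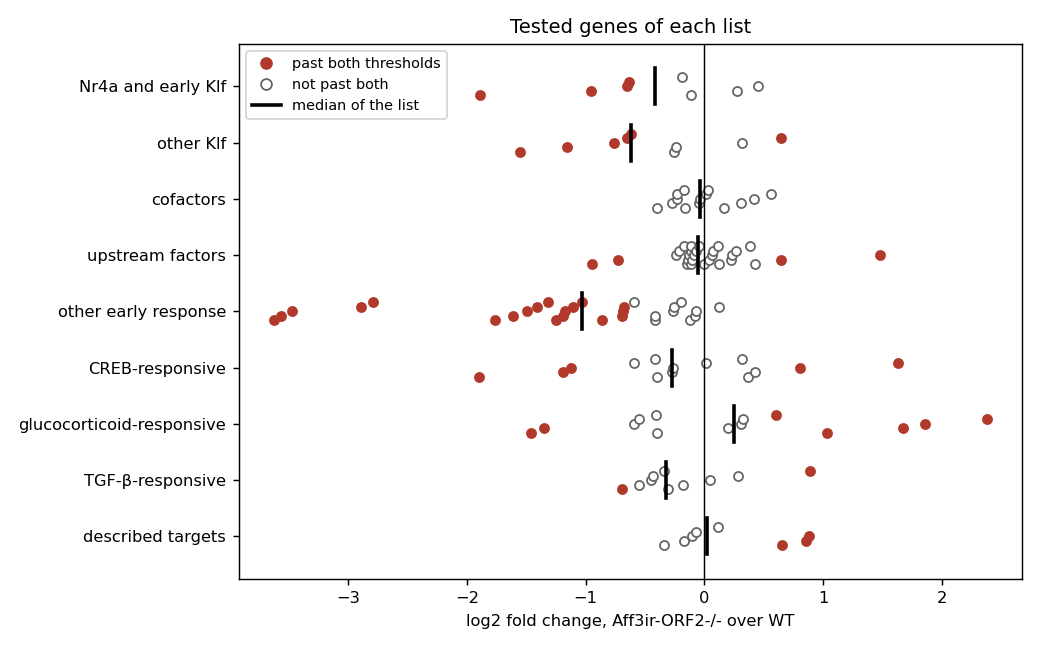
Log2 fold change of *Aff3ir-ORF2*-/- over WT MEFs (x axis) for every tested gene of each list (rows), with filled points past both thresholds and a bar at the median of the list. The 8 genes have a median of -0.41, the other Klf genes of -0.62, the other early response genes of -1.03 and the cofactors of -0.04.

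Genes described in other systems as direct targets of these factors were read from a list of 13, of which 10 were in the table and 8 were tested. Past both thresholds 3 rose and 0 fell, where 14.2% of all tested genes were higher and 7.27% lower, so that a count of 0 lower among 8 genes is near the share over all genes. The median log2 fold change was 0.02. The count of 0 lower targets was also 0 at an unadjusted p under 0.05, with DESeq2 and with limma voom. *Cdkn1a*, the p21 cell cycle inhibitor that *Klf4* and *Klf6* can activate, rose from 282 ± 3.69 to 442 ± 2.49 CPM (SD, n = 3 each; log2 fold change 0.65, edgeR adjusted p = 2.03e-06). *Thbd*, the thrombomodulin gene that *Klf2* activates in endothelium, rose from 198 ± 2.65 to 364 ± 88.2 CPM (0.88, adjusted p = 0.00814), and *Eng*, an endoglin gene that *Klf6* can activate, rose by 0.86 (9.06e-05). *Tgfb1*, a target of *Klf6*, was at 0.12, *Smad7*, a target of *Klf10*, at -0.34, and *Eno3*, described downstream of *Nr4a1* in muscle, at -0.17. *Nos3* and *Pomc* had at most 8 counts in any library and were not tested.

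The genes whose pattern over the 6 libraries lay nearest to that of each called gene were found by the Euclidean distance between centred log2 CPM profiles, among 11699 candidates. *Nr4a1* lay nearest to *Bach2* (distance 0.17), *Vgf* (0.21) and *Shank2* (0.24), and *Klf6* to *Cdc42ep3* (0.04), *Dut* (0.05) and *Rfc3* (0.06). *Klf2* lay nearest to *Slf1*, *Vash2* and *Smyd3* (0.05 to 0.07). For *Klf10* the nearest were *Prr11*, *Asf1b* and *Birc5* (0.13 to 0.14). Distances this short over 6 libraries are a description of these libraries.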

How the data were processed

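RNA-seq libraries of WT and *Aff3ir-ORF2*-/- MEFs were analysed, 3 of each, grouped by their titles. Per the study's methods, the authors had paired-end DNBSEQ reads filtered with SOAPnuke. The deposited table holds estimated counts by gene, without normalization; the submitters' processing notes name the genome build mm8, and the aligner and counting tool are not given in the sources used here. Between 10.6% and 11.3% of the deposited expected counts of a library were not whole, and all were rounded.

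Genes were filtered with filterByExpr (minimum count 10, minimum total 15) and tested with the quasi-likelihood test of edgeR 4.0.16 (TMM, robust dispersion, no covariates), with Benjamini-Hochberg adjustment over 13075 genes, in R 4.3.3. DESeq2 1.42.0, limma 3.58.1, other scalings, filters, thresholds, the replicate number as a block and leaving out each library were alternatives. An edgeR fit without robust dispersion was added after the data were seen. Standard errors were the size of the log2 fold change over the square root of F. In a simulation of this comparison over 13034 genes, the 200 given a 3-fold change were all recovered, with 0 false calls. The simulation gave both genotypes the same dispersion, unlike these libraries (0.0185 in WT, 0.0998 in *Aff3ir-ORF2*-/-), and changed only well-counted genes. It checks that the code runs as meant, and cannot show how changes nearer 1.5-fold are recovered or how many calls here are false. Motif searches, exact permutation tests (scipy 1.17.1) and figures (matplotlib 3.10.9) were made in Python 3.11.15. Of the 17092 gene IDs, 17043 were found in RefSeq GRCm38.p6, all 8 genes among them with the same symbol, and upstream sequences for 7.

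The 8 genes and all gene lists were chosen with earlier results of these data known. Named are the 8 genes, up to 4 called genes of a list by adjusted p, up to 3 others by counts, and the 3 nearest profiles. Others were named after their values were seen, where a count needed them, and a few genes that the rule names are not reported here.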

Additional observations from a re-analysis of the deposited data

How the results depend on the processing

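*Nr4a1*, *Klf2* and *Klf6* stayed lower past both thresholds, and *Nr4a2*, *Klf4* and *Klf9* stayed short of them, under all 15 alternative fits. Leaving out 1 library moved the log2 fold change of *Klf10* between -0.75 and -0.47 and that of *Nr4a3* between 0.31 and 0.69, so that 0 to 1 of the 8 genes were higher and 3 to 4 lower. Deviations from the genotype mean correlated weakly between WT and *Aff3ir-ORF2*-/- libraries of the same replicate number (0.0145 to 0.0424). All 6 libraries correlated best with their own number. Centring ties the deviations within a genotype to each other, so these 6 matches are not separate signs of a pairing. The labels do not say whether equal numbers mark a pair, so fits with and without this pairing are both given. With the replicate block 1854 genes were higher and 954 lower, against 1851 and 951, the 8 genes kept their calls, and *Nr4a2* had an adjusted p of 0.0247 at a log2 fold change of 0.28. A 2-fold change gave 1096 higher and 317 lower genes, 1 of the 8, 2 other Klf genes, 1 upstream factor, 0 TGF-β-responsive genes and 0 described targets. Without a fold change the numbers were 3831 and 3591 over all genes, 9 cofactors, 13 upstream factors, 11 CREB-responsive, 13 glucocorticoid-responsive and 6 TGF-β-responsive genes. Upper quartile and total count scaling each called 1 cofactor. Other counts of calls stayed within 1.5 times. *Nr4a3*, with 41 to 80 counts a library, is the gene whose precision depth limits most.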
